A study of Mus musculus with 5 samples.

Results

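To determine which ganglionic eminence patterning genes carry histone H3 acetylated at lysine 9 (H3K9ac) in a striatal progenitor cell line, the peaks around 7 genes were examined, namely Dlx1, Dlx2, Dlx5, Dlx6, Gsx2, Nkx2-1 and Lhx6. The genes were chosen by name, out of 22380 protein-coding gene entries of the GENCODE vM1 annotation, and each gene was given the peaks centred at most 10 kb from one of its annotated transcript starts. Gsx2 has a pair of entries in this annotation, which were joined, so the 7 genes take up 8 entries. In total 9 of 34286 DOP-treated peaks and 8 of 33355 untreated peaks met this rule.

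All samples were STHdh Q111 cells, conditionally immortalized mouse striatal progenitors of C57BL/6 origin of the genotype STHdhQ111/Q111, in which huntingtin carries an expanded CAG repeat, and the line was purchased. The DOP-treated group (2 samples) received 4 mM 4-deoxypyridoxine (DOP), an inhibitor of the sphingosine-1-phosphate lyase enzyme, in serum-free medium for 24 h. The untreated group (2 samples) received serum-free medium with the vehicle (DPBS, a phosphate-buffered saline) for the same time, and 1 IgG sample of such cells was the negative control. The Q7 cells with wild-type huntingtin were not analysed here, so both groups carry the mutant allele. Each group has a single deposited peak list, hence no value below has an error between replicates and no difference between the lists was tested. Every peak is an interval of 200 bp with a score whose scale the lists do not define. The score is therefore given with its percentile, which is its rank from the lowest in the same list, in percent. Tied scores share their mean rank. The depth of the samples is unknown.

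The ganglionic eminences are the ventral part of the embryonic telencephalon, from which striatal projection neurons and cortical interneurons arise. Gsx2 encodes a homeodomain factor that specifies progenitors of the lateral eminence, and Nkx2-1 encodes one that specifies the medial eminence. The Dlx genes act next, promoting GABAergic differentiation and migration, and form convergent pairs (Dlx1 with Dlx2, Dlx6 with Dlx5) with shared enhancers between the genes. Lhx6, a LIM homeodomain factor and a target of Nkx2-1, marks interneurons from the medial eminence. H3K9ac is found mainly at the promoters of active or poised genes.

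The label of the cells was compared with marker genes, where a peak stands for the mark and not for expression. Among 9 neural progenitor markers found in the annotation, 6 had a peak in both lists, while Nes and Sox2 had none in either, the nearest peak to Nes being 10.2 kb away. All 6 mesenchymal markers, among them Col1a1 and Fn1, had a peak in both lists. So did 2 of 6 neuronal, 1 of 6 astrocyte and oligodendrocyte, 1 of 4 microglial and 0 of 4 endothelial markers. For comparison, 55.3% of all protein-coding genes had a peak in both lists and 40.7% in neither. The progenitor share was 66.7%, and no difference from all genes was tested. The part of these markers in the results on the patterning genes was not tested.

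The sequences that the results turn on come from the mm9 assembly. The first set gives the 250 bases before the main start (the most upstream start of a protein-coding transcript), on the strand of the gene, with CG dinucleotides in capitals. Lhx6 stands for a gene with peaks of both lists near the main start (chr2:35960929-35961178, minus strand, 14 CG). These peaks were centred 138 bp (DOP-treated) and 117 bp (untreated) downstream of that start, and no listed peak overlaps the printed bases. Dlx2 is shown because its main start is the richest in CG among the main starts of the 7 genes, yet has no peak within 5 kb (chr2:71384812-71385061, minus strand, 24 CG). Nkx2-1 is shown because no peak of either list lay within 100 kb of it (chr12:57637896-57638145, minus strand, 9 CG).
Lhx6: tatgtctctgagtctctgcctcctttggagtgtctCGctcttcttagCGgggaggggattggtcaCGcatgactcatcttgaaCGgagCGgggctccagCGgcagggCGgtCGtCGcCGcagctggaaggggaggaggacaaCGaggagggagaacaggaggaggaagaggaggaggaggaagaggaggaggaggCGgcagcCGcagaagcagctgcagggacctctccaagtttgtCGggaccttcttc
Dlx2: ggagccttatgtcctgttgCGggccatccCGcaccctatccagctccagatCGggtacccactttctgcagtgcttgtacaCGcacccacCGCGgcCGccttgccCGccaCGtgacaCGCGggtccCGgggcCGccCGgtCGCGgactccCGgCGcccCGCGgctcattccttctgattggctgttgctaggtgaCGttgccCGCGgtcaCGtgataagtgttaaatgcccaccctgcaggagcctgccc
Nkx2-1: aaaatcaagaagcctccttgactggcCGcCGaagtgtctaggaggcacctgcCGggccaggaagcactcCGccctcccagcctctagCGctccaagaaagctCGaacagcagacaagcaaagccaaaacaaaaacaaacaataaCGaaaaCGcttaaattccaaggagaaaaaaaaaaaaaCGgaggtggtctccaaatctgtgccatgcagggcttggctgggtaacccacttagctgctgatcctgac

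The second set holds a pair of peak intervals that were found in a single list, on the plus strand. The interval between Dlx1 and Dlx2 (chr2:71377526-71377725) was listed only after DOP and has CG in capitals. The interval in an intron of Dlx1 (chr2:71368540-71368739) was listed only without DOP and has the word TAATTA in capitals. Many homeodomain proteins, though not all, are known to bind this core.
Dlx1-Dlx2 interval: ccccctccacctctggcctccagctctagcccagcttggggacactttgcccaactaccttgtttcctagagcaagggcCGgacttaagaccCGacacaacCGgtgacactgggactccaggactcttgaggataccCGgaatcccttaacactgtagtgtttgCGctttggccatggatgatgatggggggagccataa
Dlx1 intron interval: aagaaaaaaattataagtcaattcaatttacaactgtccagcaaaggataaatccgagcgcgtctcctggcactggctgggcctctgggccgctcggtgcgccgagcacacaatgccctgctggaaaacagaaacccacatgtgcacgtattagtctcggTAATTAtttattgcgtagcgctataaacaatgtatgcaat

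Dlx1 and Lhx6 had peaks in both lists, Dlx2 and Dlx6 had a peak after DOP only, and Dlx5, Gsx2 and Nkx2-1 had none in either list. Thus 4 of the 7 genes had a DOP-treated peak and 2 had an untreated peak, against 57.7% and 56.9% of all protein-coding genes. The share of all genes with a peak in both lists was 55.3%, that with none was 40.7%, that with a peak after DOP only was 2.39%, and that with a peak without DOP only was 1.62%. The 7 genes had a median of 1 peak after DOP and 0 peaks without it, against 1 for all genes in both lists. Score percentiles of the DOP-treated peaks ran from 8.1 to 76.3 (median 42), and those of the untreated peaks from 16.4 to 59.1 (median 36.9). Of the DOP-treated peaks 4 of 9 lay above the median score of the list, and of the untreated peaks 1 of 8 did.

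**Figure D1:**
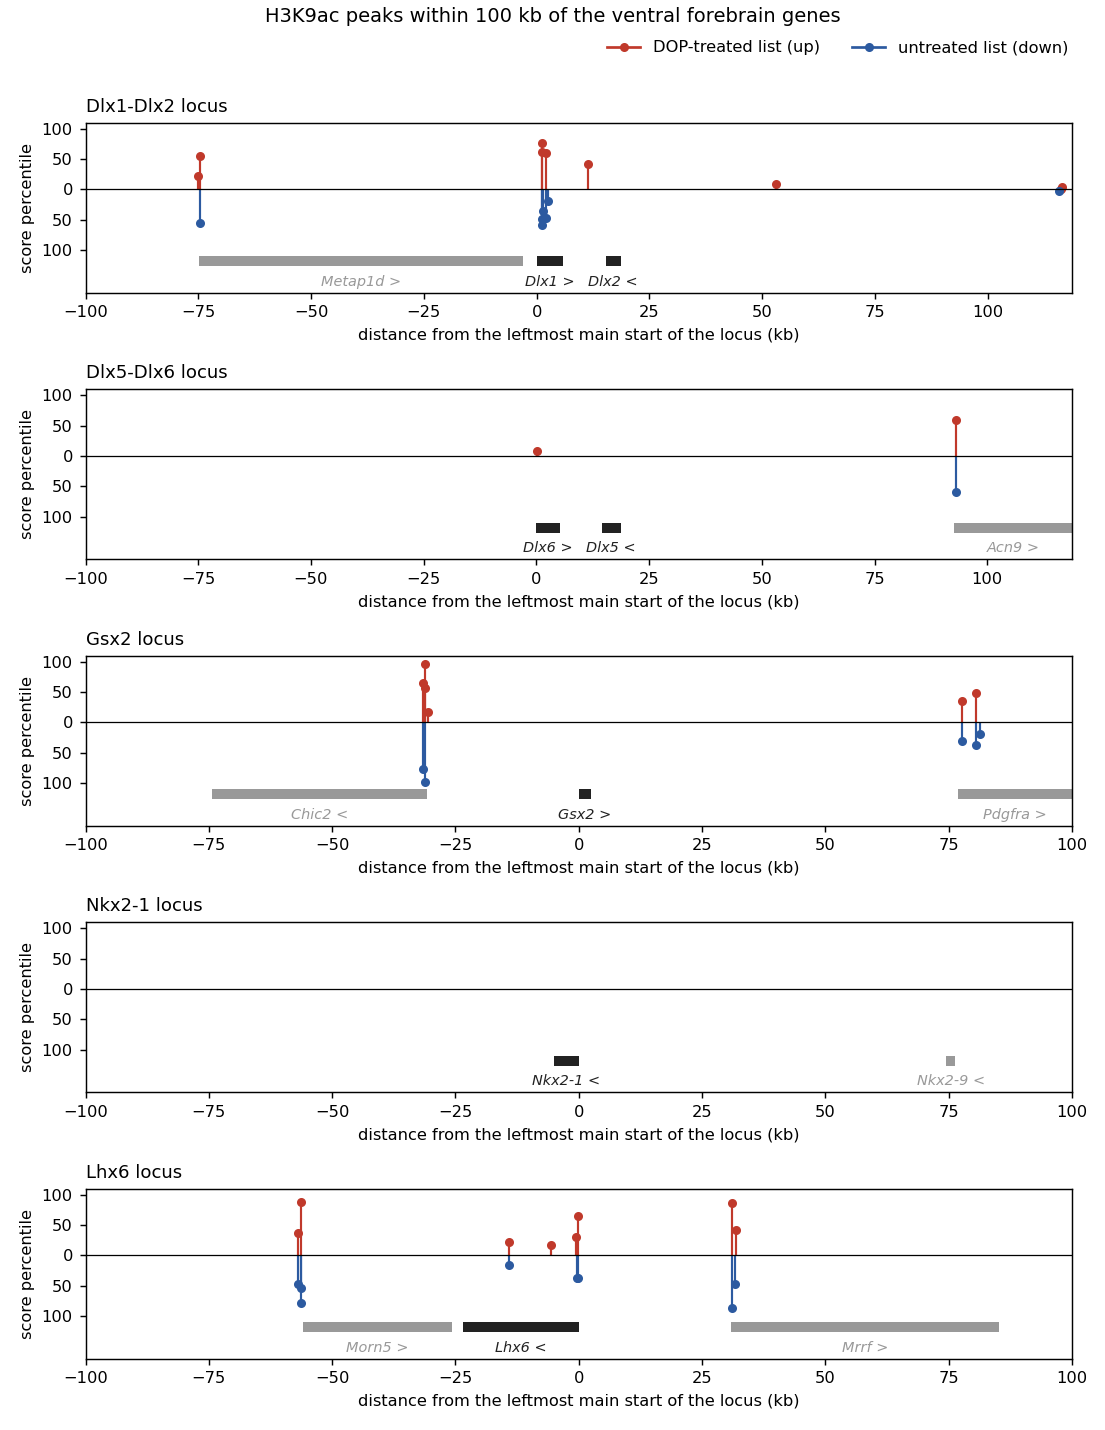
Peaks within 100 kb of the main starts at the 5 loci. The x axis is the distance in kb from the leftmost main start, in genome direction, and the height of each stem is the score percentile within its list, upward for DOP-treated and downward for untreated peaks. Black bars are the patterning genes, grey bars the nearest protein-coding gene on either side where it falls in the window, and arrowheads give the strand. Dlx1 and Lhx6 carry peaks in both directions, while the Nkx2-1 panel has no peak.

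Among the Dlx genes, Dlx1 (chromosome 2, 71366170 to 71372038, plus strand) had the strongest peaks. In the DOP-treated list 3 peaks lay inside the gene. They were centred at 71367258 with a score of 539 (percentile 61.7), at 71367405 with a score of 751 (percentile 76.3) and at 71368238 with a score of 513 (percentile 59.4). The first and the second lie in the 5' UTR and the third in a coding exon. All 3 also lie within an intron of Dlx1as, a long noncoding RNA on the opposite strand, so the mark at this place cannot be given to one of these transcripts alone.

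The untreated list placed its peaks at nearly the same positions in Dlx1. They were centred at 71367254 with a score of 489 (percentile 59.1), at 71367394 with a score of 393 (percentile 49.3), at 71367574 with a score of 273 (percentile 34.9) and at 71368260 with a score of 370 (percentile 46.6). Each of these 4 overlapped a DOP-treated peak, and the centres of the closest 3 pairs were 4, 11 and 22 bp apart. The last untreated peak, centred at 71368639 with a score of 153 (percentile 18.4), lay in an intron 401 bp from the nearest DOP-treated peak and was found in the untreated list only. It is the Dlx1 intron interval printed above. Dlx1 therefore kept H3K9ac in both lists, over about the same stretch.

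The peaks of Dlx1 did not lie at its most upstream start. The nearest was 1088 bp downstream of it after DOP and 1084 bp without DOP. They lay 100 and 96 bp from another annotated start, at 71367158, which has 19 CG in the 300 bases around it (250 before and 50 after), against 3 at the most upstream start. Of the 6 starts of Dlx1, this one was the closest to a peak in either list.

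Dlx2 (chromosome 2, 71381466 to 71384811, minus strand) had no peak in the gene or at its starts in either list. Its single assigned peak was the DOP-treated interval between the genes, centred at 71377625 with a score of 348 (percentile 42), outside annotated genes. This peak lay 6382 bp from a start of Dlx2, downstream of it, and 8788 bp from a start of Dlx1, and so counted for both genes, and with a window of 5 kb it counted for neither. The nearest untreated peak was 8986 bp away from it. In the untreated list the peak nearest to Dlx2 lay 15368 bp from a start and belonged to Dlx1, which puts it outside the window. The mark was thus listed at one gene of this convergent pair and, after DOP, at 1 position between them.

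**Figure D2:**
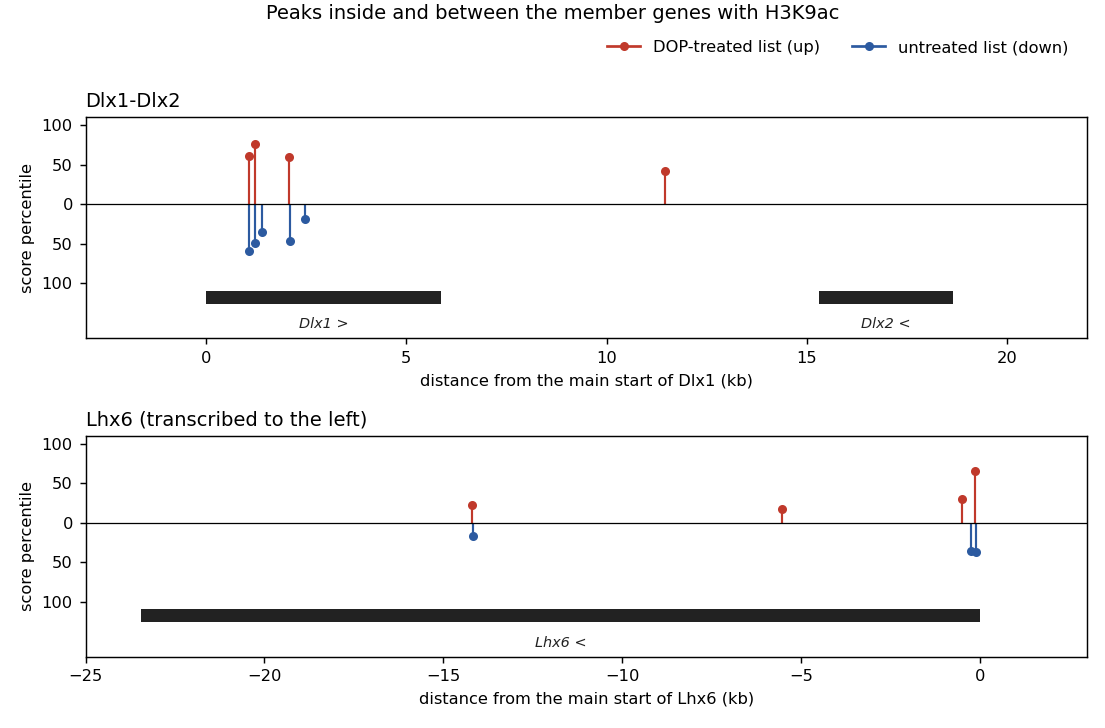
Peaks within Dlx1-Dlx2 (upper panel) and Lhx6 (lower panel), by distance in kb from the main start of Dlx1 or Lhx6 in genome direction. Stems show the score percentile within the DOP-treated list (upward) and the untreated list (downward), and black bars are the genes. Peaks of both lists gather 1 to 3 kb into Dlx1 and at the start of Lhx6, and Dlx2 has none over the gene.

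The other Dlx pair had a single listed peak in the window. Dlx6 (chromosome 6, 6813334 to 6818568, plus strand) had a single DOP-treated peak, centred at 6813503 with a score of 85 (percentile 8.1). It lay 169 bp downstream of the most upstream start and 294 and 295 bp upstream of the other annotated starts. Its centre is in a coding exon and within an intron of the noncoding Dlx6os1, and the nearest untreated peak was 92796 bp away. This is a weak peak, and it was lost when a minimum score of 100 was applied. Dlx5 (chromosome 6, 6827805 to 6832085, minus strand) had no peak, the nearest being that of Dlx6, 18565 bp away, after DOP and one of Acn9, 74214 bp away, without it. Without DOP, the interval with no peak around this pair measured 378 kb, from Shfm1 to Acn9.

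The progenitor factors had no peak in the window. Gsx2 (chromosome 5, 75471489 to 75473918, plus strand) lay 30.6 kb from the nearest DOP-treated peak and 31.2 kb from the nearest untreated peak, both at the neighbouring gene Chic2. At Chic2 there were 4 DOP-treated and 2 untreated peaks, the highest at percentiles 95.6 and 98.2. On the other side Pdgfra, a growth factor receptor gene, had 2 and 3 peaks, and the interval with no peak between these neighbours measured 108 kb and 109 kb. Nkx2-1 (chromosome 12, 57632922 to 57637895, minus strand) was the most distant of the 7, at 145 kb from a DOP-treated and 160 kb from an untreated peak. The interval around it measured 336 kb after DOP and 351 kb without it, and also takes in its relative Nkx2-9, which had 0 peaks in both lists. It ended at Mbip on one side and near Pax9 on the other. Without DOP it ended at a peak of percentile 98.1, 803 bp from a start of Pax9, which overlapped a DOP-treated peak. After DOP it ended earlier, at a weak peak (percentile 10.2) 10254 bp from a start of Pax9 that the untreated list lacked.

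Lhx6 (chromosome 2, 35937470 to 35960928, minus strand) had 4 peaks after DOP and 3 without it. At the start, the DOP-treated list had a peak centred at 35960790 with a score of 579 (percentile 65.1), 1 bp from an annotated start, in the 5' UTR. The untreated list had a peak there centred at 35960811 with a score of 294 (percentile 37.5) and a second at 35960684 with a score of 286 (percentile 36.4), in a coding exon. Both overlapped the DOP-treated peak. Lhx6 was the gene of the 7 with a peak closest to a start in either list.

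Further peaks of Lhx6 lay inside the gene. One at 35946741 in the DOP-treated list, with a score of 193 (percentile 22.5), had its counterpart at 35946755 in the untreated list, with a score of 138 (percentile 16.4). Both centres lie in an intron, about 14 kb into the gene. Another 2 DOP-treated peaks were found in that list only, at 35960424 with a score of 246 (percentile 29.7) and at 35955387 with a score of 154 (percentile 17.2). The first lies 260 bp from an untreated peak of the start, whereas the second lies 5297 bp from any untreated peak. Both are intronic and of low score.

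Counted over all 7 genes, 5 of 9 DOP-treated peaks overlapped an untreated peak by at least 1 bp, against 80.0% of the whole list. Of the untreated peaks 7 of 8 overlapped a DOP-treated peak, against 83.3% of the whole list. The 4 peaks found after DOP only were the interval between Dlx1 and Dlx2, that of Dlx6 and a pair in Lhx6, and the 1 found without DOP only was that in the intron of Dlx1. Within the 10 kb that chose them, 6 DOP-treated and 7 untreated peaks lay within 1 kb of a start. Just inside the 10 kb window were the peak between Dlx1 and Dlx2, at 6382 and 8788 bp, and just outside it were those at 15368 bp from Dlx2 and 18565 bp from Dlx5.

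**Figure D3:**
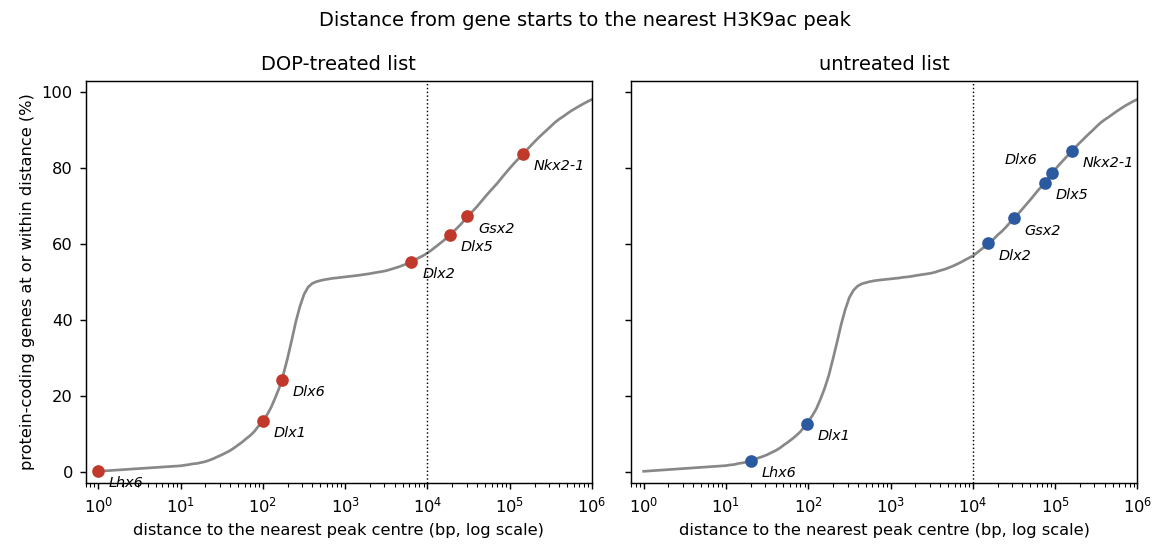
Distance from any start of a gene to the nearest peak centre (x axis, bp, log scale) for all 22380 protein-coding genes (grey curve, percent of genes at or within that distance) in the DOP-treated (left) and untreated (right) list. Points are the patterning genes and the dotted line is at 10 kb. Dlx1 and Lhx6 are at 100 bp or less in both panels, Dlx6 is at 169 bp on the left and beyond 10 kb on the right, and Nkx2-1 is the most distant.

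When all protein-coding genes were ordered by the distance to the nearest peak, Lhx6 stood at percentile 0.246 after DOP and 2.93 without it, and Dlx1 at 13.5 and 12.7. The distance is the smallest over all starts of a gene, and Lhx6 and Dlx1 have 6 starts each, against 1 for Nkx2-1. It does not measure the strength of a peak. Dlx6 stood at 24.2 and 78.8, the largest move of the 7, and it rests on 1 weak peak. Dlx2 stood at 55.4 and 60.2, Dlx5 at 62.4 and 76.2, Gsx2 at 67.3 and 66.8, and Nkx2-1 at 83.8 and 84.6. Over all genes the median distance was 429 bp after DOP and 524 bp without it. Among the genes that had no peak within 10 kb it was 89775 bp and 89621 bp, so that Gsx2 lay closer to a peak than most such genes and Nkx2-1 farther.

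The genes next to the loci were examined in the same way. The protein-coding genes with the nearest start on either side of the 5 loci were Metap1d, Gm1631, Shfm1, Acn9, Chic2, Pdgfra, Mbip, Nkx2-9, Morn5 and Mrrf. All had a peak within 10 kb in both lists except Gm1631 and Nkx2-9, which had none in either, against the 55.3% of all genes with a peak in both lists, and this was not tested. Within 100 kb of the main starts, 4 of 9 DOP-treated and 2 of 7 untreated peaks at Dlx1-Dlx2 were nearest to another gene, and at Gsx2 all 6 and all 5 were. Beside Lhx6, the strongest peaks near Mrrf were at percentiles 86.7 and 86.8, higher than any peak of Lhx6 itself. They also lie in an exon or the 5' UTR of Rbm18, and those near Morn5 lie in introns of Ndufa8. The mark there cannot be given to a single neighbour.

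Base composition was not used to choose the genes. In the 300 bases around the main start, the number of CG was 3 in Dlx1, 4 in Dlx6, 11 in Dlx5 and in Gsx2, 12 in Nkx2-1, 16 in Lhx6 and 29 in Dlx2. Across all genes, promoters with a peak in both lists had a median of 20 CG, and those with none had 3. Of the 2330 promoters with 10 to 14 CG, the class of Dlx5, Gsx2 and Nkx2-1, 65.9% belonged to genes with a peak in both lists and 29.8% to genes with none. Among the 3449 promoters with at least as many CG as Dlx2 these shares were 87.1% and 10.4%. The CG-poor main starts of Dlx1 and Dlx6 lie close to other starts with more, as the other starts of Dlx6 have 33.

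**Figure D4:**
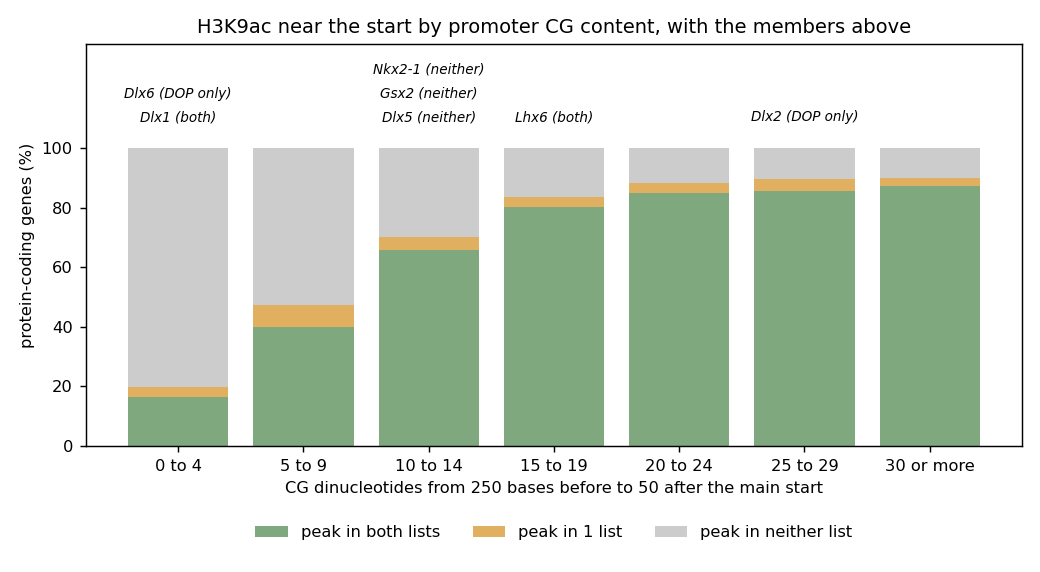
Share of protein-coding genes (y axis, percent) having a peak in both lists (green), in 1 list (yellow) or in neither (grey), by the number of CG dinucleotides from 250 bases before to 50 after the main start (x axis). The patterning genes are written above the class of their promoter with their own state. The share with a peak in both lists goes from 16.4% at 0 to 4 CG to 87.4% at 30 or more.

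CG was also counted over the 200 bases of each peak, where the median was 10 over all DOP-treated and 11 over all untreated peaks. The peaks within 1 kb of a start of Dlx1, Dlx6 or Lhx6 had 11 to 26 CG, the lowest being the untreated-only peak in the intron of Dlx1. Of those farther away, the interval between Dlx1 and Dlx2 had 5, the intronic DOP-only peak of Lhx6 at 35955387 had 3, and the Lhx6 peaks at 35946741 and 35946755 had 13 and 14. Short words were then counted on both strands. GGGCGG, the GC box, was found in the 300 bases of 3 of the 7 genes (Dlx2, Nkx2-1 and Lhx6) and in 44% of all promoters. TATAAA and CAAGTG, the latter a word bound by Nkx2-1 protein, were each found in 1, that of Dlx6, and in 13.4% and 13.5% of all promoters. TAATTA was found in 0 of the 7 and in 4.79% of all promoters, and the Gli word GACCACCCA in 0 and in 0.21%. Among the peaks, TAATTA was in the Dlx1 intron interval and in 1.5% of all untreated peaks. TATAAA was in the same interval and in 3.26% of all untreated peaks. CAAGTG was in the DOP-only Lhx6 peak centred at 35960424 and in 8.58% of all DOP-treated peaks. GGGCGG was in peaks of Dlx1 and Lhx6 of both lists, and in 28.5% of all DOP-treated and 29.3% of all untreated peaks. GGGCGG holds a CG, none of the other words contains another, and a match describes letters only.

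The other genes of ventral forebrain development were taken from lists chosen by name. Of 28 further ganglionic eminence and interneuron factors, 9 had a peak in both lists (32.1%), 3 after DOP only, 3 without DOP only and 13 in neither. Of all genes 55.3% had a peak in both lists and 40.7% in neither, and the differences were not tested for this or the following lists. Without a peak, like Gsx2 and Nkx2-1, were for example Bcl11b, a factor of striatal neurons, Gbx2 and Gsx1, the close relative of Gsx2. The peaks found after DOP only were near Foxp2 (percentile 7.93), Maf (63.7) and Satb1 (4.75), and those found without DOP only included peaks near Nkx2-2 (5.25) and Sp9 (13.4). Of these 5, only that of Maf was above the median score of its list. All 5 GABA genes, among them Gad1, Gad2 and Abat of GABA metabolism and the vesicular transporter Slc32a1, had no peak in either list, against 40.7% of all genes.

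Sonic hedgehog is the signal that patterns the ventral forebrain. Of 15 forebrain and sonic hedgehog pathway genes, 10 (66.7%, against 55.3% of all genes, a difference that was not tested) had a peak in both lists and 3 (Hhip, Otx2 and Shh) in neither, while Boc, a co-receptor, had one after DOP only and Gli2 without DOP only. Chosen after their values were seen, Smo, the signal transducer, reached percentiles 95.2 and 97.7, and Gli3, a repressor of ventral fate in the forebrain, reached 98.8 and 91.8. The ligand gene Shh itself was 149 kb from a peak in both lists.

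Of 16 dorsal forebrain factors 2 had a peak in both lists (12.5%, against 55.3% of all genes). A further 9 had one in neither (40.7% of all genes), among them Dmrta1, Dmrta2, Emx1, Fezf2 and Lhx5. One, Eomes, had a DOP-treated peak only, and Lhx2, Neurod2, Neurog2 and Tbr1 had untreated peaks only, none above percentile 20. Of 13 relatives of the patterning genes, 3 (Dlx4, Lhx1 and Nkx2-3) had a peak in both lists (23.1%, against the same 55.3%). Another 7 had one in neither, among them Dlx3, Lhx3, Nkx2-4, Nkx2-5 and Nkx2-9, whereas Gbx1, Lhx4 and Nkx2-6 had untreated peaks only. Over all 77 genes of these lists, 5 had a peak after DOP only and 11 without DOP only. Of all 22380 genes 535 (2.39%) and 362 (1.62%) did, smaller shares than in the lists, and these differences were not tested.

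**Figure D5:**
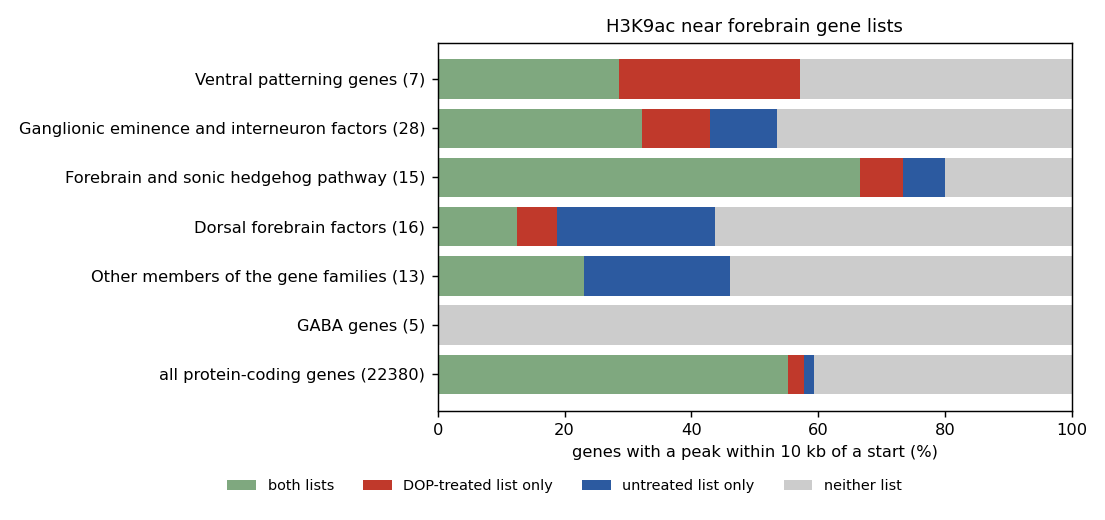
Share of genes (x axis, percent) having a peak in both lists (green), the DOP-treated list only (red), the untreated list only (blue) or neither (grey), for the patterning genes, the 5 other lists and all protein-coding genes, with the number of genes in parentheses. The sonic hedgehog list has the largest green share, and the GABA genes have no peak.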

How the data were processed

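H3K9ac ChIP-seq was made from 2 DOP-treated and 2 untreated samples of STHdh Q111 cells, with 1 IgG sample that was not analysed here. The authors aligned single-end reads to mm9, with Bowtie 2 per the paper's methods and BWA 0.7.10 per the submitters' processing notes, and called peaks with GPS. For each group the paper counts fewer peaks than the deposited lists, which hold 34286 DOP-treated and 33355 untreated peaks. The reason for this difference is unknown. The score in the deposited lists is the authors' own value, and neither its scale, the call threshold, the use of the IgG sample nor the way the samples of a group were combined is given in the sources used here. The lists hold no read counts, so depth is unknown, and 0 columns of other samples were left out.

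Peaks were assigned by centre within 10 kb of any transcript start in GENCODE vM1 (NCBIM37, which is mm9), and 0 peaks ran past a chromosome's end. Peaks overlapping by at least 1 bp were shared. Symbols missing from the annotation were matched by Ensembl ID or older symbol in the GRCm38.p6 gene table, and Sox1 was left unmatched. The 7 genes, the lists and the alternatives were chosen with earlier results of these data known. Named from the lists are genes with a peak in 1 list only and up to 5 without a peak, in alphabetical order. Some genes that this rule names are not reported here. The window, distance and overlap functions recovered 7 of 7 planted answers on 629 sites of simulated data. No test of the conditions was run. Python 3.11.15, numpy 2.4.6 and pandas 2.3.3 were used. Alternatives were other windows, transcript types, score limits, assignment rules and rules for sharing.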

Additional observations from a re-analysis of the deposited data

How the results depend on the processing

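No paired analysis was possible because each group has 1 list and the lists carry no replicates, and for the same reason no replicate could be left out. Of 78 values under an alternative, 58 stayed within their limit, which was 1.5 times for counts and no change for distances. With the higher-scoring 50% of each list alone, 2 of the 7 genes (Dlx1 and Lhx6) had a DOP-treated peak and 1 (Dlx1) had an untreated peak, with 4 and 1 peaks in all, and 19 of the 77 list genes had an untreated peak. In these peaks the median distance was 31.1 kb after DOP, and the median interval with no peak was 351 kb in both lists, against 6.38 kb, 92.8 kb after DOP and 113 kb without in all peaks. A minimum score of 100 gave 30.6 kb for the median distance after DOP and intervals of 248 kb and 257 kb, and starts of protein-coding transcripts alone gave 7.19 kb. A window of 50 kb took in the peaks of neighbouring genes, with 18 DOP-treated and 15 untreated peaks and 4 genes with an untreated peak. For the list genes, of which 35 had an untreated peak, a window of 1 kb left 22 and upstream peaks alone left 21. With a reciprocal overlap of 50% there were 3 untreated-only peaks, and with centres within 500 bp or 1 kb there were 0. Fewer peaks or a wider window enter these counts by construction. Nkx2-1 had no peak under any alternative, and Dlx1 and Lhx6 kept a DOP-treated peak under each. With unknown depth, a gene without a listed peak is not shown to lack H3K9ac.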
